A study of Homo sapiens with 12 samples.

Results

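The receptors through which Wnt proteins are sensed were followed in RNA sequencing of 2 human prostate cancer cell lines, DU145 and PC3, each sorted by the brightness of GFP. The genes were taken by symbol: 7 Frizzled genes (FZD1, FZD2, FZD3, FZD4, FZD6, FZD7 and FZD8), the co-receptor genes LRP5 and LRP6, and LGR4, making 10 of the 18950 genes in the table. The 12 libraries fell into 4 groups of 3. DU145 GFP+ and DU145 GFP- were the cells in the brightest and the dimmest 10% of DU145, and PC3 GFP+ and PC3 GFP- were the same extremes of PC3; the labels describe the bright cells as Wnt/β-catenin active and the dim cells as inactive. All groups grew in DMEM with serum and carried no stated drug, gene deletion or added ligand. The labels used here do not name the construct that drives GFP or say whether the lines are single clones. They also leave unsaid whether replicate libraries were grown and sorted independently, so the p-values speak only to the spread among these libraries, and that spread may be technical.

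Frizzled proteins are receptors that cross the membrane several times and whose extracellular cysteine-rich domain binds Wnt. In the β-catenin branch of the pathway, Wnt joins a Frizzled to LRP5 or LRP6, Dishevelled and Axin gather at the tail of the LRP, and β-catenin is spared from destruction. LGR4 binds R-spondins, which draw off the ubiquitin ligases RNF43 and ZNRF3 that would otherwise clear Frizzled and LRP from the cell surface. In prostate tumours the pathway is known for activity that varies between cells and between patients. Each value here is an mRNA level, and in bulk samples fewer cells of a type and less RNA per cell cannot be told apart.

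The libraries held 13453614 to 21528810 estimated counts. The unit CPM expresses a count relative to the scaled total of its library, and 3 counts correspond to 0.130 to 0.233 CPM. The labelled identity was checked against marker genes before the results. KRT8 and KRT18, keratins of luminal epithelium, were at 1641 to 2896 CPM and 1238 to 2023 CPM in the DU145-labelled libraries, against 16.2 to 28.3 CPM and 338 to 486 CPM in the PC3-labelled ones. Of the other 4 epithelial markers on the list, KRT7 was low but detected, at 1.12 to 3.30 CPM in the DU145-labelled and 3.67 to 5.83 CPM in the PC3-labelled libraries, and 3 were at or near 0 in all 12 libraries, with 0 to 3 counts of EPCAM, 0 to 11 of CDH1 and 0 to 4 of KRT19. CTNNA1, the α-catenin gene known as lost by deletion in PC3, was detected in the PC3-labelled libraries at 377 to 416 CPM. The EPCAM, CDH1, KRT19 and CTNNA1 readings go against the labels, so the libraries are called DU145-labelled and PC3-labelled, and whether they are those lines was not tested. Leukocyte markers (3 of 5 in the table), endothelial markers (3 of 4) and fibroblast markers (5 of 6) summed to at most 12, 26 and 83 counts per library.

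Promoter sequence was available from RefSeq (GRCh38.p14) for 5 of the 10 genes: FZD1, FZD4, FZD8, LRP5 and LGR4. The 3 windows below belong to receptor genes that moved between the GFP sorts of the DU145-labelled libraries, FZD8 downward, FZD1 and LGR4 upward. Each is the 250 bases before the annotated start, read 5′ to 3′ on the strand of the gene. Capitals mark a GC box (GGGCGG or its reverse complement CCGCCC) or a TATA box (TATAAA or TTTATA). The windows are FZD8 at chr10:35642297-35642546, minus strand; FZD1 at chr7:91264183-91264432, plus strand; and LGR4 at chr11:27472791-27473040, minus strand.
FZD8: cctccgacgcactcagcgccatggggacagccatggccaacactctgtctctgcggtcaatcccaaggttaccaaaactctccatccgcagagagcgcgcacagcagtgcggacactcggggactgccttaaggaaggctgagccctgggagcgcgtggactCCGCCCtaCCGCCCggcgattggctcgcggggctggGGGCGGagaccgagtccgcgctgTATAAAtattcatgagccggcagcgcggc
FZD1: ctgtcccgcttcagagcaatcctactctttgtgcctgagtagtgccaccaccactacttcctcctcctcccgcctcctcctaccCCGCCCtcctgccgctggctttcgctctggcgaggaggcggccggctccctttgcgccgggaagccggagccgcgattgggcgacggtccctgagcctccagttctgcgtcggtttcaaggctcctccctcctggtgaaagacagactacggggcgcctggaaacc
LGR4: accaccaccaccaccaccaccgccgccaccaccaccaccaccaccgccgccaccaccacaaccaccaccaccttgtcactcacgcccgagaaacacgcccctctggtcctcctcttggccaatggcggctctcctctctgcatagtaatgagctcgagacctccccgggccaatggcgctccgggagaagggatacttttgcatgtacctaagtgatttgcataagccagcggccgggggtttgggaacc
FZD8 held 3 GC boxes and 1 TATA box, FZD1 held 1 GC box, and LGR4 held neither motif. FZD4 held 6 GC boxes, of which neighbouring copies overlap, and LRP5 held 3. Among 35116 RefSeq promoter windows of the same length, 42.6% held a GC box and 10.7% a TATA box. The core letters bound by TCF/LEF factors, CTTTGA or TCAAAG on the other strand, were in none of the 5 windows and in 11.2% of all windows. A match is a description of letters, and no match says only that those letters are absent from this window. CpG pairs numbered 24 in FZD8, 19 in FZD1 and 14 in LGR4, against a median of 11 over all windows.

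All 10 receptor genes lay above the minimum used for testing, which asked for an average log2 CPM no lower than 0 over the 12 libraries. Levels of different genes were compared as CPM per kb of annotated exon. LRP5 was the most abundant in every group, at 21.3 ± 1.9 CPM per kb in DU145 GFP+, 25.5 ± 2.5 in DU145 GFP-, 16.1 ± 0.2 in PC3 GFP+ and 20.2 ± 1.4 in PC3 GFP- (SD, n = 3 each). Its range did not meet that of the next gene in any group. FZD6 came next in DU145 GFP+ (11.7 ± 3.2 CPM per kb), where its range overlapped that of FZD2 (8.34 ± 1.36). FZD6 also came next in PC3 GFP+ (11.3 ± 0.8) and PC3 GFP- (10.9 ± 2.1), but was 4th in DU145 GFP- (4.35 ± 0.75). In that last group FZD2, at 9.41 ± 2.46 CPM per kb, and FZD8, at 6.77 ± 1.15, stood above it, and the ranges of FZD2 and FZD8 overlapped each other but FZD8 and FZD6 did not overlap.

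The lower part of the order was crowded in DU145 GFP+. From LRP6 (2.92 ± 0.49 CPM per kb) through LGR4 (2.36 ± 0.39), FZD7 (2.15 ± 0.25), FZD8 (1.82 ± 0.53) and FZD4 (1.27 ± 0.27) to FZD1 (1.07 ± 0.16), each gene's range overlapped that of its neighbour. In the same order DU145 GFP- ran FZD7 (2.32 ± 0.18), LRP6 (2.07 ± 0.14), FZD4 (1.42 ± 0.15), LGR4 (1.12 ± 0.07) and FZD1 (0.699 ± 0.074), with overlaps between FZD7 and LRP6 and between FZD1 and the lowest gene, FZD3. FZD3 was lowest in both DU145-labelled groups, at 0.585 ± 0.074 CPM per kb in GFP+ and 0.509 ± 0.121 in GFP-. The PC3-labelled order ran LRP5, FZD6, FZD2, LRP6, FZD8 and LGR4 in both sorts, and FZD7 was lowest, at 0.247 ± 0.023 CPM per kb in GFP+ and 0.272 ± 0.041 in GFP-. Among PC3-labelled neighbours, FZD4 and FZD1 overlapped in both sorts, and in GFP- so did FZD2 with LRP6, LRP6 with FZD8, and FZD3 with FZD7. Per-length values rest on the annotation, in which FZD2 has the shortest exons of the 10 (2.11 kb) and FZD3 the longest (13.8 kb).

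**Figure D1:**
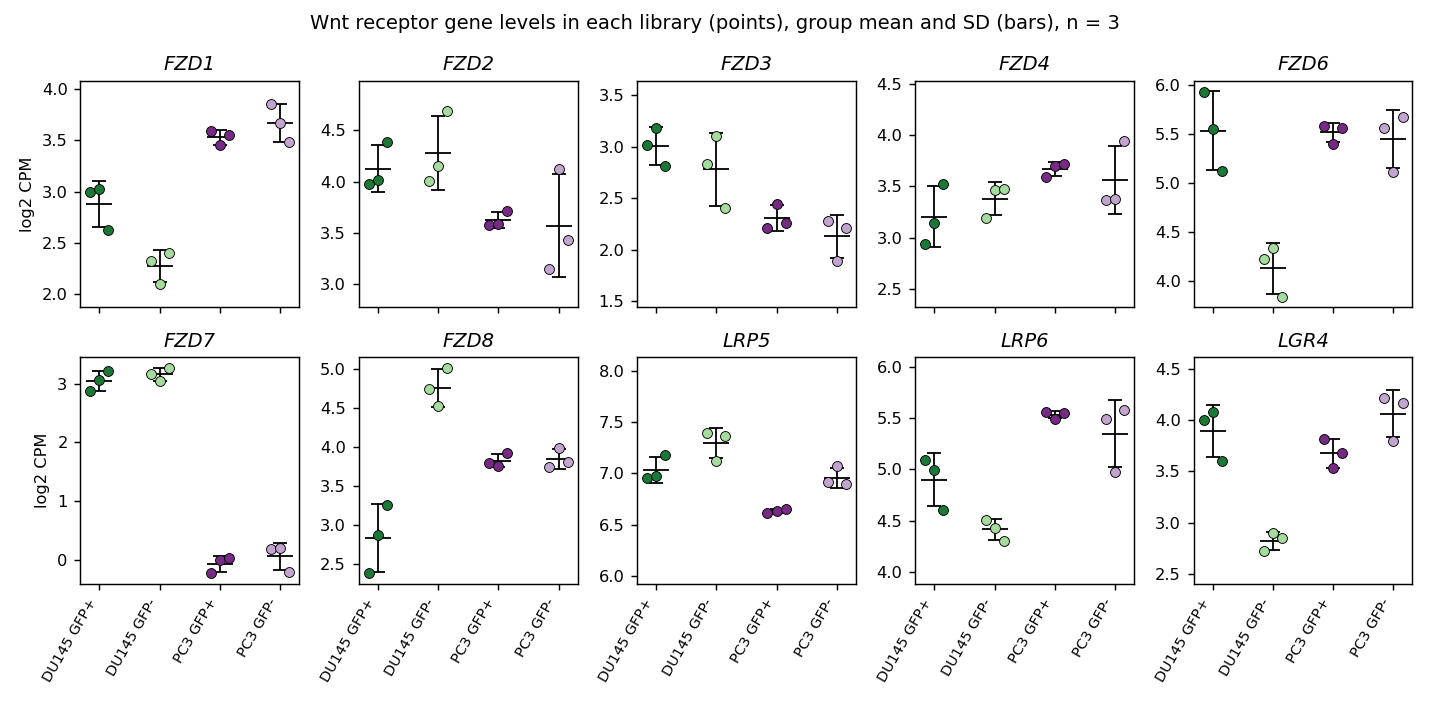
Level of each receptor gene as log2 CPM (vertical axis) in each of the 12 libraries (points, 3 per group), with the group mean and SD (bars). In DU145 GFP+ against DU145 GFP-, FZD6 and LGR4 sit higher and FZD8 lower with no overlap, and FZD7 sits lower in every PC3-labelled library than in any DU145-labelled one.

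The comparison of the DU145 sorts asked which receptor genes differ between bright and dim cells of that label. Here 6 of the 10 receptor genes passed limma's threshold of 0.05 on the adjusted p-value, with 4 higher and 2 lower in the bright cells, where 29.7% of all 11570 genes tested passed, 14.3% higher and 15.4% lower. FZD6, LGR4, FZD1 and LRP6 rose, and FZD8 and LRP5 fell. The values of GFP+ and GFP- did not overlap for 5 receptor genes, against 41.3% of all genes. The median log2 fold change of the 10 was 0.06, against -0.02 over all genes tested, and the calls lay in both directions. The number of all genes passing was 972, 1154, 5621, 1388 and 999 without DU145 GFP+ replicates 1, 2 and 3 and DU145 GFP- replicates 1 and 3, against 3435 with all libraries. The count of receptor genes passing was 3 without DU145 GFP+ replicate 1 or without replicate 2.

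FZD8, the receptor most closely related to FZD5, had the largest change of the 10. It was at 5.20, 7.32 and 9.51 CPM in the DU145 GFP+ libraries, against 26.6, 23.0 and 32.2 CPM in the DU145 GFP- libraries. Every GFP+ library lay below every GFP- library by a wide gap. The log2 fold change was -1.92 ± 0.19 (SE, limma adjusted p = 4.29e-05), a level 3.79-fold lower in GFP+. It passed under all 25 alternatives tried, with log2 fold changes between -2.13 and -1.51. The gene is annotated at chr10:35638249-35642278 on the minus strand (GRCh38, GENCODE 29), and its promoter is the GC-box and TATA-box window shown above.

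FZD6 belongs with FZD3 to the Frizzled pair best known from planar cell polarity, the orientation of cells within a sheet. It was at 60.8, 46.9 and 34.9 CPM in DU145 GFP+, against 18.6, 20.1 and 14.3 CPM in DU145 GFP-. The groups did not overlap, and replicate 3 was the lowest library within each. The log2 fold change was 1.41 ± 0.19 (SE, limma adjusted p = 0.000605), a 2.65-fold higher level, and it passed under all 25 alternatives (0.98 to 1.61). FZD3 was at 8.10, 9.07 and 7.02 CPM in GFP+, against 7.12, 8.62 and 5.30 CPM in GFP-, and those ranges overlapped. Its log2 fold change of 0.22 had a 95% confidence interval of -0.22 to 0.67 (limma adjusted p = 0.412). FZD6 shares its locus with the antisense gene BAALC-AS1, and the strand used in counting is not given in the sources used here.

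FZD1, FZD2 and FZD7 form one branch of the family, and they did not share a call. FZD1 was at 7.96, 8.17 and 6.17 CPM in DU145 GFP+, against 5.0, 4.29 and 5.30 CPM in DU145 GFP-, with the lowest bright library above the highest dim one. Its log2 fold change was 0.61 ± 0.16 (SE, limma adjusted p = 0.0188), or 1.52-fold. The FZD1 call was lost without DU145 GFP+ replicate 1 (limma adjusted p = 0.0795) or replicate 2 (0.0769), with quantile normalization (0.123) and with each line fitted alone (0.0534). FZD1 is annotated at chr7:91264364-91271326 on the plus strand. FZD2 was at 15.7, 16.2 and 20.9 CPM in GFP+, against 16.1, 17.7 and 25.8 CPM in GFP-, and its log2 fold change of -0.15 had an interval of -0.65 to 0.34. FZD7 was at 7.32, 8.35 and 9.27 CPM in GFP+, against 8.94, 8.23 and 9.65 CPM in GFP-, with a log2 fold change of -0.11 and an interval of -0.58 to 0.36. For both genes the libraries of the sorts were interleaved, and changes within those intervals were not detectable in this design.

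FZD4, a receptor that also binds the non-Wnt ligand norrin, was at 7.67, 8.86 and 11.5 CPM in DU145 GFP+, against 9.16, 11.1 and 11.1 CPM in DU145 GFP-. The ranges overlapped, and the log2 fold change of -0.18 (interval -0.58 to 0.23) did not pass (limma adjusted p = 0.477). The FZD4 estimated counts were fractional in all 12 libraries, and the gene overlaps PRSS23 on the other strand, so its values are uncertain.

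The LRP co-receptors moved in opposite directions in the DU145-labelled libraries, by less than FZD6 or FZD8. LRP6 was at 34.1, 32.0 and 24.4 CPM in GFP+, against 22.8, 21.6 and 19.8 CPM in GFP-. The groups were separate, although DU145 GFP+ replicate 3 lay close to the dim libraries. The log2 fold change was 0.48 ± 0.15 (SE, limma adjusted p = 0.0334). LRP5 was at 124, 126 and 145 CPM in GFP+, against 168, 139 and 164 CPM in GFP-, and the ranges overlapped. Its log2 fold change was -0.26 ± 0.09 (SE, limma adjusted p = 0.0443). The LRP6 call was lost without DU145 GFP+ replicate 1 or 2 or any DU145 GFP- replicate (limma adjusted p from 0.0547 to 0.143). The LRP5 call was lost without DU145 GFP+ replicate 1 or 2, DU145 GFP- replicate 1 or 3, any PC3 GFP+ replicate or PC3 GFP- replicate 1 (0.0576 to 0.168). LRP6 passed under 14 of 25 alternatives and LRP5 under 10 of 25. LRP6 is annotated at chr12:12116025-12267012 (minus strand) and LRP5 at chr11:68312609-68449275 (plus strand). LRP6 overlaps BCL2L14 on the other strand, and its values carry that uncertainty.

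LGR4, the R-spondin receptor, was at 16.0, 16.8 and 12.1 CPM in DU145 GFP+, against 6.64, 7.46 and 7.21 CPM in DU145 GFP-. The lowest bright library was well above the highest dim one. The log2 fold change was 1.06 ± 0.16 (SE, limma adjusted p = 0.00108), a 2.09-fold higher level. The call held under 24 of 25 alternatives, and leaving out DU145 GFP+ replicates 1 and 2 together ended it (limma adjusted p = 0.12). An antisense gene, AC100771.2, overlaps LGR4, which is annotated at chr11:27365961-27472775 on the minus strand.

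The third DU145 GFP+ library was the one nearest to the dim cells for most of these genes. It had the lowest level of FZD6, LRP6, FZD1 and LGR4 within its group, and the highest level of FZD8, LRP5 and FZD2. Other measures also moved with the sort in the DU145-labelled libraries. The 6 epithelial markers, carried by KRT8 and KRT18, summed to 2882 to 3592 CPM in DU145 GFP+, against 4422 to 4892 CPM in DU145 GFP-; their part in the receptor changes was not tested. With all genes ranked by GC content into 5 equal groups, the median log2 fold change was 0.50, 0.21, -0.05, -0.21 and -0.27 from the lowest to the highest GC content. Receptor genes that rose had GC contents of 38.4% (FZD6), 40.2% (LRP6), 42.1% (LGR4) and 47.7% (FZD1), and those that fell had 62.8% (LRP5) and 64.6% (FZD8).

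With each library's trend in GC content and length removed, 4 of the 6 DU145 calls held. FZD8 kept a log2 fold change of -1.64 ± 0.14 (limma adjusted p = 1.76e-06) and FZD6 one of 0.98 ± 0.10 (9.24e-06). LGR4 stood at 0.75 ± 0.11 (0.000436) and FZD1 at 0.55 ± 0.15 (0.0169). LRP6 and LRP5 no longer passed, with log2 fold changes of 0.01 (limma adjusted p = 0.947) and -0.01 (0.944).

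**Figure D2:**
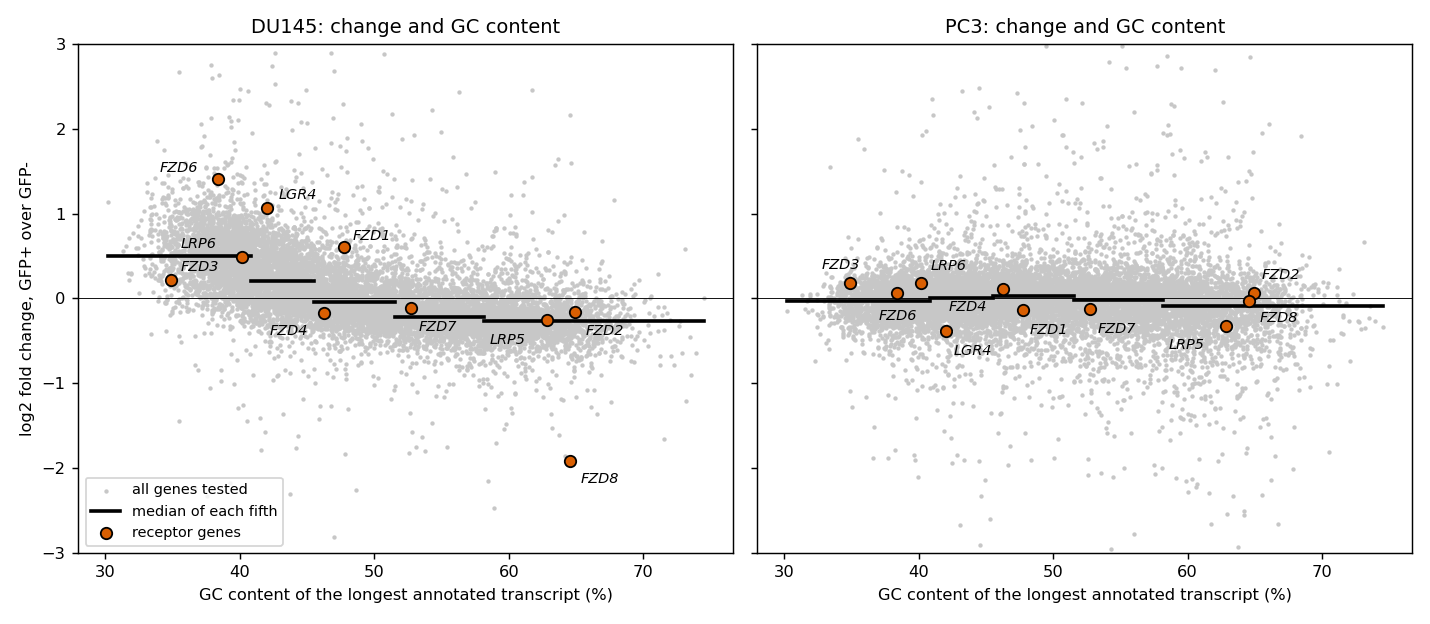
log2 fold change of GFP+ over GFP- (vertical axis) against GC content of the longest annotated transcript in percent (horizontal axis) for all genes tested (grey), the median of each of 5 equal groups of genes by GC content (black lines) and the 10 receptor genes (orange), DU145-labelled on the left and PC3-labelled on the right. FZD6, LGR4 and FZD1 lie above the DU145 median line at their GC content and FZD8 lies far below it, while LRP6 and LRP5 lie on it; 25 genes in the DU145 panel and 18 in the PC3 panel fall outside the axis.

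In the PC3-labelled libraries 1 of the 10 receptor genes passed, where 9.46% of all genes tested did, 4.07% higher and 5.39% lower. That gene was LRP5, which fell. It was at 98.0, 99.2 and 101 CPM in PC3 GFP+, against 121, 134 and 119 CPM in PC3 GFP-, and the groups did not overlap, as was so for 29.6% of all genes. The log2 fold change was -0.33 ± 0.09 (SE, limma adjusted p = 0.0357). The LRP5 call was lost without any PC3 GFP+ replicate (limma adjusted p from 0.084 to 0.118), without PC3 GFP- replicate 1 (0.0748) or 2 (0.115) and with equal medians (0.149), and it held with the GC and length trend removed (log2 fold change -0.21, 0.0124). The number of all genes passing was 588, 624 and 712 without PC3 GFP+ replicates 1, 2 and 3 and 689 without PC3 GFP- replicate 1, against 1095 with all libraries.

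FZD8, FZD6 and FZD1, which passed under the DU145 label, did not pass in the PC3-labelled libraries. FZD8 was at 13.8, 13.5 and 15.1 CPM in PC3 GFP+, against 13.4, 15.8 and 14 CPM in PC3 GFP-, a log2 fold change of -0.03 (interval -0.44 to 0.39, limma adjusted p = 0.961). FZD6 was at 48.0, 42.2 and 47.1 CPM in PC3 GFP+, against 47.0, 34.6 and 50.9 CPM in PC3 GFP-, a log2 fold change of 0.07 (interval -0.35 to 0.49, limma adjusted p = 0.892). FZD1 was at 12.05, 10.9 and 11.7 CPM in PC3 GFP+, against 14.4, 12.7 and 11.2 CPM in PC3 GFP-, a log2 fold change of -0.14 (interval -0.49 to 0.22). In all of these the sorts overlapped, and for FZD8, FZD6 and FZD1 the intervals do not reach the size seen under the DU145 label.

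LGR4 was at 14.1, 11.6 and 12.8 CPM in PC3 GFP+, against 18.5, 13.9 and 18.0 CPM in PC3 GFP-. One dim library lay within the bright range. The log2 fold change was -0.39 ± 0.16 (SE, limma adjusted p = 0.17), which did not pass; with the GC and length trend removed it was -0.39 with an adjusted p of 0.0252. LRP6 was at 47.1, 45.1 and 46.9 CPM in PC3 GFP+, against 44.9, 31.5 and 47.8 CPM in PC3 GFP-, and its log2 fold change of 0.19 had an interval of -0.15 to 0.52. PC3 GFP- replicate 2 was the lowest dim library for LRP6, FZD6, FZD3 and LGR4 and the highest for FZD2, FZD8 and LRP5. FZD2, FZD3, FZD4 and FZD7 had log2 fold changes of 0.06, 0.18, 0.11 and -0.13 with limma adjusted p from 0.686 to 0.924. The epithelial markers summed to 379 to 414 CPM in PC3 GFP+, against 365 to 519 CPM in PC3 GFP-, and overlapped. Other marker lists were higher in PC3 GFP+ without overlap, at 11.6 to 12.9 CPM, against 7.74 to 10.0 CPM in PC3 GFP-, for the androgen receptor programme, 2.87 to 3.71 CPM, against 0.844 to 1.81 CPM, for fibroblast markers and 0.898 to 1.19 CPM, against 0.388 to 0.611 CPM, for endothelial markers. Their part in the PC3 values was not tested.

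**Figure D3:**
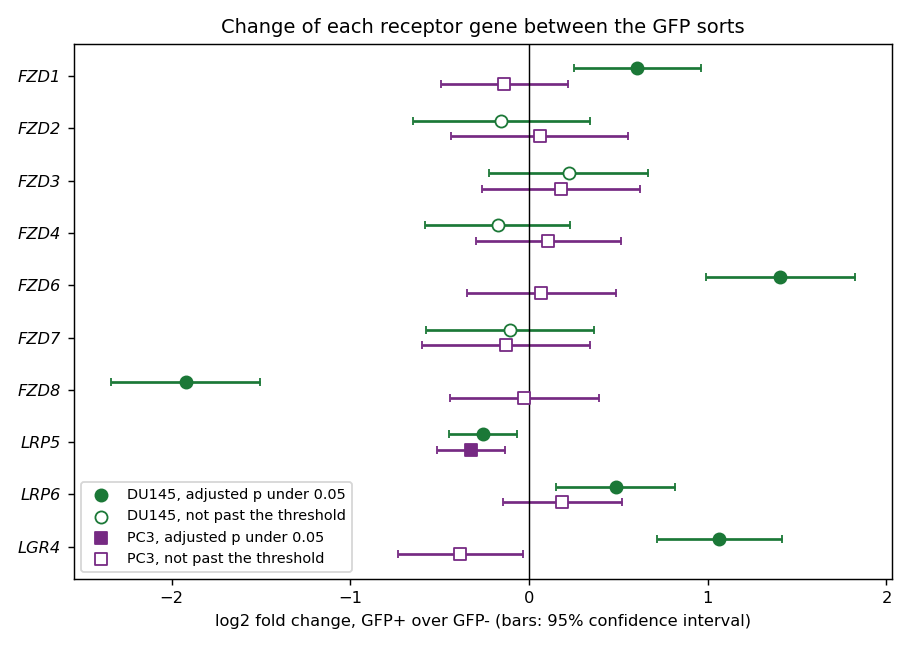
log2 fold change of GFP+ over GFP- (horizontal axis) with its 95% confidence interval for each receptor gene in the DU145-labelled (circles) and PC3-labelled (squares) libraries; filled symbols passed an adjusted p under 0.05. FZD8 (-1.92), FZD6 (1.41), LGR4 (1.06) and FZD1 (0.61) have DU145 intervals that do not meet their PC3 intervals.

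The change between the sorts was then compared between the labels in a single test, the DU145 log2 change minus the PC3 log2 change. By this test 4 of the 10 receptor genes differed, 3 with a positive and 1 with a negative difference, where 16.9% of all genes tested did, 7.43% positive and 9.5% negative. Over all genes, 1959 passed. That count was 1096 to 1233 without DU145 GFP+ replicate 1 or 2, DU145 GFP- replicate 1 or 3, PC3 GFP+ replicate 1 or 2, or PC3 GFP- replicate 1 or 3, and 3665 and 3380 without DU145 GFP+ replicate 3 and PC3 GFP- replicate 2. The difference was -1.90 ± 0.27 for FZD8 (SE, limma adjusted p = 0.000636) and 1.45 ± 0.23 for LGR4 (0.00121). It was 1.34 ± 0.27 for FZD6 (limma adjusted p = 0.0059), a call lost when DU145 GFP+ replicates 1 and 2 were both left out (0.0692). FZD1 had a difference of 0.74 ± 0.23 (limma adjusted p = 0.0439). The FZD1 difference passed under 9 of 23 alternatives, and was lost without DU145 GFP+ replicate 1 or 2, any DU145 GFP- replicate, any PC3 GFP+ replicate or PC3 GFP- replicate 1 (limma adjusted p from 0.058 to 0.117). LRP5, which passed under both labels, had a difference of 0.07 with an interval of -0.20 to 0.34 (0.725), and LRP6, which passed under 1 label, had 0.30 with an interval of -0.17 to 0.77 (0.345).

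The make-up of the Frizzled transcript pool was described over the 10 Frizzled genes in the table, the 7 receptor genes here and FZD5, FZD9 and FZD10, as shares of their summed CPM per kb. The sum was 30.4 ± 1.4 CPM per kb in DU145 GFP+, against 29.2 ± 3.6 in DU145 GFP-, and 27.7 ± 1.5 in PC3 GFP+, against 26.4 ± 1.1 in PC3 GFP- (SD, n = 3 each). Under each label the sums of the sorts overlapped. FZD6 made up 46.8%, 39.5% and 28.5% of the pool in the DU145 GFP+ libraries, against 17.1%, 17.9% and 10.5% in DU145 GFP-. FZD8 made up 4.04%, 6.23% and 7.83% in DU145 GFP+, against 24.6%, 20.7% and 24% in DU145 GFP-. Neither share overlapped between the DU145 sorts. FZD2 took 27.5 ± 4.9% in DU145 GFP+, against 31.8 ± 4.3% in DU145 GFP-. In the PC3-labelled libraries FZD6 took 40.7 ± 1.1% in GFP+, against 41.1 ± 7.8% in GFP-, and FZD8 took 12.7 ± 0.4% in GFP+, against 13.5 ± 1.1% in GFP-. The FZD6 share of DU145 GFP+ thus overlapped that of both PC3 groups, whereas that of DU145 GFP- lay below both. FZD5, the closest relative of FZD8, took 6.86 ± 0.32% in DU145 GFP+, against 8.07 ± 1.10% in DU145 GFP-, and these ranges overlapped. In the PC3-labelled libraries FZD5 took 10.2%, 8.63% and 9.83% in GFP+, against 8.0%, 6.80% and 7.24% in GFP-, which did not overlap. No test was run on the shares, which rest on the same values as the tests of each gene.

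**Figure D4:**
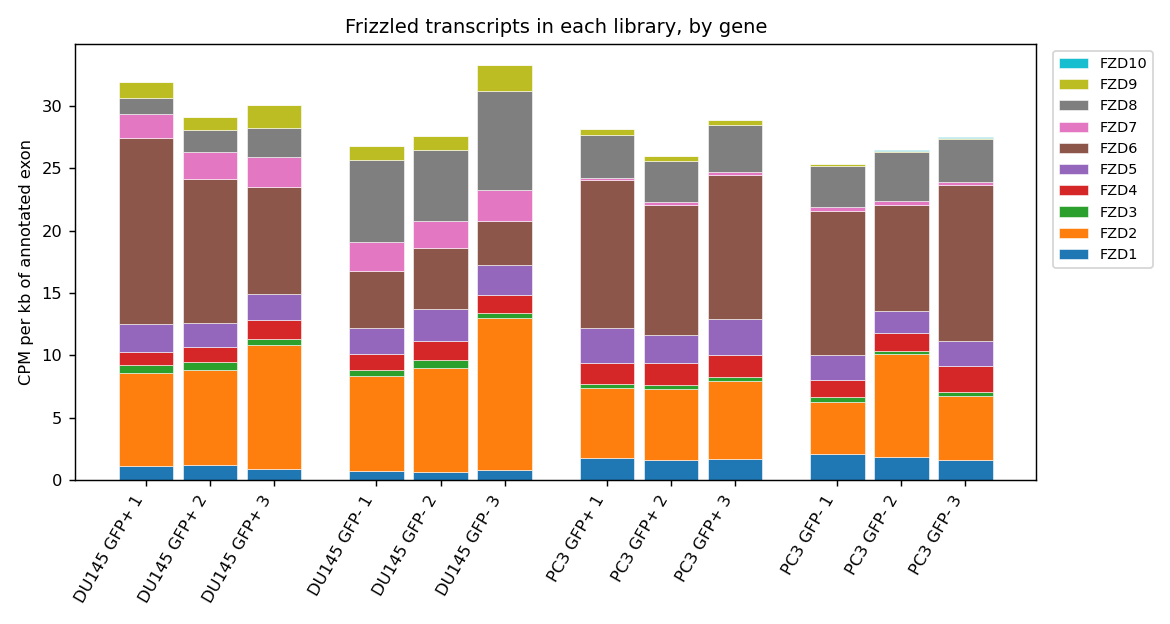
Frizzled transcripts in each library as CPM per kb of annotated exon (vertical axis), stacked by gene, with DU145 GFP+, DU145 GFP-, PC3 GFP+ and PC3 GFP- libraries from left to right. The bars have similar heights, with group means of 26.4 to 30.4 CPM per kb, while the FZD6 segment is wide and the FZD8 segment narrow in DU145 GFP+ and the reverse holds in DU145 GFP-.

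Between the labels, averaged over the sorts, 9 of the 10 receptor genes passed, 4 higher and 5 lower under the DU145 label, where 76.9% of all genes tested did, 36.6% higher and 40.3% lower, so a call by itself says little. FZD7 differed most, with 7.32 to 9.65 CPM in the 6 DU145-labelled libraries against 0.85 to 1.14 CPM in the 6 PC3-labelled libraries. Its log2 difference was 3.11 ± 0.15 (SE, limma adjusted p = 4.69e-10), an 8.64-fold higher level under the DU145 label. FZD3, FZD2 and LRP5 were also higher under the DU145 label, by 0.68, 0.61 and 0.37 on the log2 scale. FZD1 had a log2 difference of -1.02 ± 0.12 (limma adjusted p = 2.28e-06) and LRP6 one of -0.78 ± 0.11 (1.59e-05), so both were lower under the DU145 label. FZD6 and LGR4 had log2 differences of -0.65 and -0.51 and so were lower on this average, although their DU145 GFP+ means were at 47.5 and 15 CPM, against 45.8 and 12.8 CPM in PC3 GFP+. FZD4 had -0.32 (limma adjusted p = 0.0391), which passed under 9 of 23 alternatives; it was lost without DU145 GFP+ replicate 1 or 2, DU145 GFP- replicate 1, any PC3 GFP+ replicate or PC3 GFP- replicate 3 (0.0511 to 0.111). FZD8, with -0.04 and an interval of -0.33 to 0.26, did not pass, its means of 14.1 and 14.4 CPM in PC3 GFP+ and GFP- falling between those of DU145 GFP+ and GFP-, 7.34 and 27.3 CPM.

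Other genes that act at the same receptors were read from 4 lists. Of 18 other Wnt receptors and co-receptors, 10 were above the minimum, and in the DU145-labelled libraries 2 rose (TSPAN12 and SDC1). The median log2 fold change of the 10 was 0.08, against -0.02 over all genes. With 29.7% of all genes called, 2 of 10 is not above the background. TSPAN12, a tetraspanin partner of FZD4, had 34 counts in DU145 GFP+, against 1 count in DU145 GFP-, a ratio of 36.8 with a counting interval of 6.17 to 1495 (limma adjusted p = 0.0002). SDC1, a cell-surface heparan sulfate proteoglycan, was at 65.4, 71.9 and 78.6 CPM in DU145 GFP+, against 54.6, 48.3 and 56.1 CPM in DU145 GFP-, and at 52.6, 53.4 and 56.2 CPM in PC3 GFP+, against 106, 126 and 108 CPM in PC3 GFP-. Its log2 fold changes were 0.44 ± 0.10 under the DU145 label (limma adjusted p = 0.00787) and -1.07 ± 0.10 under the PC3 label (1.02e-05), so SDC1 rose in one and fell in the other. FZD9 was the other PC3 call, rising with 60 counts in PC3 GFP+, against 12 counts in PC3 GFP-, a ratio of 4.09 with a counting interval of 2.18 to 8.35 (limma adjusted p = 0.00376). With it, 2 of the 10 passed in the PC3-labelled libraries (9.46% of all genes did), and the list's median there was 0.28, against -0.02 over all genes.

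Of 13 entries for receptor turnover and R-spondins, 5 were above the minimum. In the DU145-labelled libraries 1 rose and 1 fell, where 14.3% of all genes rose and 15.4% fell. USP8, a deubiquitinase reported to act on Frizzled, was at 28.9, 26.0 and 18.2 CPM in DU145 GFP+, against 12.9, 17.6 and 14.2 CPM in DU145 GFP- (log2 fold change 0.69 ± 0.21, limma adjusted p = 0.0295); its call did not survive removal of the GC and length trend (limma adjusted p = 0.39) or leaving out DU145 GFP+ replicate 1 or 2 or DU145 GFP- replicate 1 or 3 (0.097 to 0.129). SHISA3, of a family that in frogs holds Frizzled within the cell, had 2 counts in DU145 GFP+, against 44 in DU145 GFP-, a ratio of 20.3 toward GFP- with a counting interval of 5.31 to 173 (limma adjusted p = 0.000325). ZNRF3, the ligase that R-spondin and LGR4 draw off, averaged 21.9 ± 2.5 CPM in DU145 GFP+, against 26.8 ± 2.3 CPM in DU145 GFP- (SD, n = 3 each; limma adjusted p = 0.0659), and 36.4 ± 1.6 CPM in PC3 GFP+, against 33.8 ± 3.3 CPM in PC3 GFP- (0.644). Its partner ligase RNF43 had 5 counts in DU145 GFP+, against 5.81 estimated counts in DU145 GFP-, and 0 in PC3 GFP+, against 3 in PC3 GFP-. LGR5, the stem cell relative of LGR4, had 0 counts in both DU145 sorts and in PC3 GFP+ and 1 in PC3 GFP-, and was not detectable at this depth. In the PC3-labelled libraries 0 of the turnover genes passed with limma, 1 had an unadjusted p under 0.05, and voom passed 0.

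Of 19 secreted and membrane antagonists, 5 were above the minimum, and 1 fell under each label, where 15.4% of all genes fell in the DU145-labelled and 5.39% in the PC3-labelled libraries. Counts of 1 among 5 genes set nothing apart from those shares. KREMEN1, a receptor for the Dickkopf proteins that block LRP5 and LRP6, fell to 28.5, 29.8 and 32.9 CPM in DU145 GFP+, against 44.3, 40.8 and 48.3 CPM in DU145 GFP- (log2 fold change -0.55 ± 0.11, limma adjusted p = 0.00492). DKK3, the divergent Dickkopf, fell to 140, 144 and 127 CPM in PC3 GFP+, against 210, 218 and 200 CPM in PC3 GFP- (log2 fold change -0.61 ± 0.07, limma adjusted p = 0.000119). DKK1, a Dickkopf that binds LRP5 and LRP6, averaged 5.73 ± 1.20 CPM in DU145 GFP+, against 3.95 ± 0.85 CPM in DU145 GFP- (SD, n = 3 each; limma adjusted p = 0.0858), and 5.50 ± 0.26 CPM in PC3 GFP+, against 6.60 ± 1.57 CPM in PC3 GFP- (0.612). The list's median log2 fold change was -0.44 in the DU145-labelled and -0.24 in the PC3-labelled libraries.

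Of 17 receptor-proximal transducers, 16 were above the minimum, and in the DU145-labelled libraries 3 rose and 3 fell, with a median log2 fold change of -0.13, against -0.02 over all genes. The shares called over all genes were 14.3% higher and 15.4% lower, and the list's count lies near them. CSNK1G3, of the casein kinase family that phosphorylates LRP6 at the membrane, averaged 18.9 ± 4.7 CPM in DU145 GFP+, against 9.32 ± 0.05 CPM in DU145 GFP- (log2 fold change 0.99 ± 0.19, limma adjusted p = 0.00399). CAPRIN2, which binds LRP6, averaged 30.6 ± 6.5 CPM in DU145 GFP+, against 17.7 ± 1.6 CPM in DU145 GFP- (0.77 ± 0.15, limma adjusted p = 0.00558). CSNK1G1 was the third to rise (0.35 ± 0.11, limma adjusted p = 0.0349). DVL1, a Dishevelled, averaged 210 ± 28 CPM in DU145 GFP+, against 274 ± 17 CPM in DU145 GFP- (-0.38 ± 0.09, limma adjusted p = 0.0124), and CSNK1E (-0.27 ± 0.07, 0.0142) and CSNK1G2 (-0.26 ± 0.09, 0.0487) also fell. Of these 6, only CSNK1G3 and CAPRIN2 passed with the GC and length trend removed. The other calls were lost without DU145 GFP+ replicate 1 or 2 or DU145 GFP- replicate 3, with limma adjusted p of 0.0574 to 0.0654 for DVL1, 0.053 to 0.0739 for CSNK1E, 0.117 to 0.149 for CSNK1G1 and 0.154 to 0.208 for CSNK1G2. The last pair was lost without DU145 GFP- replicate 1 also (0.122 and 0.0875), and CSNK1G2 without DU145 GFP- replicate 2, any PC3 GFP+ replicate or PC3 GFP- replicate 1 or 3 as well (0.0504 to 0.0644). In the PC3-labelled libraries 0 of the 16 passed with limma, 1 had an unadjusted p under 0.05, and voom passed 0.

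The genes whose log2 levels ran most closely with each receptor over the 12 libraries were read by Pearson's r among 9970 genes averaging no less than 2 in log2 CPM, as a description over libraries that share their groups. FZD8 ran closest with AMPD2 (r = 0.965), FHOD1 (0.960) and SEC24C (0.955). FZD6 ran closest with MALT1 (r = 0.980), EDIL3 (0.977) and NSD1 (0.976), and LGR4 with EDIL3 (0.970), RNF19A (0.968) and ORC2 (0.966), so EDIL3 appears beside both genes. LRP6 had the closest companions of all, BIRC6 (r = 0.994), USP34 (0.993) and MGA (0.992). LRP5 ran with PTRF (r = 0.977), CERCAM (0.974) and GPAA1 (0.973), and FZD1 with TMEM263 (0.977), PKD2 (0.977) and TMEM126A (0.976).

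**Figure D5:**
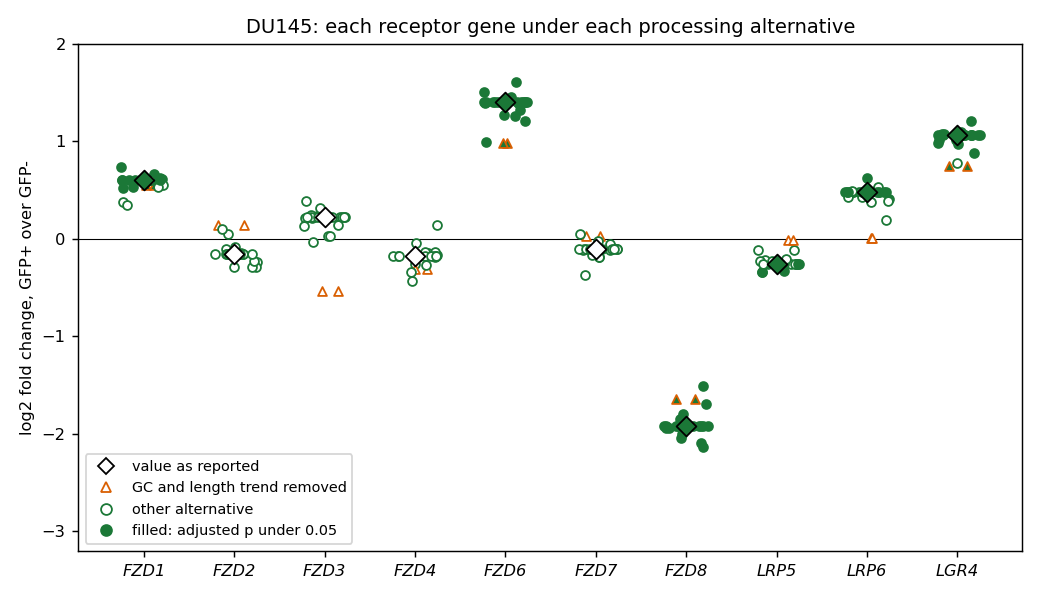
log2 fold change of GFP+ over GFP- in the DU145-labelled libraries (vertical axis) for each receptor gene as reported (diamonds), with the GC and length trend removed (triangles) and under each other alternative (circles); filled symbols have an adjusted p under 0.05. FZD8 (-2.13 to -1.51) and FZD6 (0.98 to 1.61) are filled throughout, LGR4 is open once, and the open symbols are frequent for LRP6 and LRP5.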

How the data were processed

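RNA sequencing of total RNA covered 12 libraries, grouped by their labels (3 per combination of line and GFP sort). The deposited values, log2 normalized counts per the labels, were read from their steps as log2 CPM with an offset of 0.5 counts; undoing this gave estimated counts, of which 86.4% to 88.0% per library were whole within 0.01. STAR and DESeq2 are named in the submitters' processing notes. Genome build and counting: not given in the sources used here. CPM printed here includes the offset.

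All genes with a mean log2 value of at least 0 (11570 of 18950) were fitted with limma 3.58.1 in R 4.3.3 (4 group means, eBayes with trend, two-sided, 13.6 residual plus prior degrees of freedom), and p-values were adjusted by Benjamini-Hochberg over all of them, at 0.05. Intervals of fold changes are at 95%. Counting intervals for low genes are exact conditional ones and cover counting error only. GC content, exon length and positions came from GENCODE 29 (18901 genes matched by identifier), and the GC and length trend was removed by loess (span 0.4) of each library against its line's mean.

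The receptor genes and lists were chosen with earlier results of these data known. Named were all 10 receptor genes, up to 6 genes per line and list with the smallest p among those past the threshold, RNF43, ZNRF3, LGR5, DKK1 and KREMEN1, and 3 genes most like each receptor that passed in a GFP comparison. Alternatives were the filter, offset, scaling, variance model, voom, each line alone, the replicate block, GC and length, and leaving out libraries.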

Additional observations from a re-analysis of the deposited data

Results flagged for a closer look

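The change between the GFP sorts differed between the DU145-labelled and PC3-labelled libraries, by limma's test of the difference, for 4 receptor genes. The difference (DU145 log2 change minus PC3 log2 change) was -1.90 for FZD8, 1.45 for LGR4, 1.34 for FZD6 and 0.74 for FZD1. Among the other genes at the receptor it was 1.51 for SDC1, which rose under the DU145 label and fell under the PC3 label. It was 3.27 for TSPAN12, -3.92 for SHISA3 and -1.95 for FZD9, each with low counts under a single label. TSPAN12 and SHISA3 were low under the DU145 label. In PC3 GFP+ and PC3 GFP- they had 763 and 380 counts (TSPAN12) and 280 and 184 (SHISA3). FZD9 was low under the PC3 label, with 135 counts in DU145 GFP+ and 155 in DU145 GFP-. With an offset of 8 counts the TSPAN12 difference was lost (limma adjusted p = 0.213), as was that of FZD9 (0.0829), while that of SHISA3 passed. The FZD9 difference was also lost without DU145 GFP+ replicate 2 (limma adjusted p = 0.055) or DU145 GFP- replicate 3 (0.0568). The difference was -0.79 for KREMEN1 and 0.72 for DKK3, and among transducers 1.08 for CSNK1G3, 0.84 for CAPRIN2, -0.44 for DVL1 and -0.39 for CSNK1E. The CAPRIN2 difference was lost without DU145 GFP+ replicate 1 or 2, DU145 GFP- replicate 1 or 3 or PC3 GFP- replicate 1 or 3 (0.0511 to 0.0573). The DVL1 difference was lost without those or any PC3 GFP+ replicate (0.0593 to 0.101), and that of FZD1 without the libraries named in the results. FZD5 and SDC4, chosen after their values were seen because they passed this test but neither comparison of sorts, had differences of -0.61 (limma adjusted p = 0.049) and -0.42 (0.0454). The FZD5 difference was lost without DU145 GFP+ replicate 1 or 2, any DU145 GFP- replicate, PC3 GFP+ replicate 1 or 3 or any PC3 GFP- replicate (0.0524 to 0.117), and that of SDC4 without DU145 GFP+ replicate 1 or 2, DU145 GFP- replicate 1 or 3, PC3 GFP+ replicate 1 or 2 or PC3 GFP- replicate 1 or 3 (0.0713 to 0.122). Of all genes tested, 16.9% differed in this way.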

How the results depend on the processing

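Over the 10 receptor genes, 892 of the values obtained under alternatives stayed on their side of the threshold, 70 lost the call and 2 gained it. Values that did not pass could change sign: with the GC and length trend removed the DU145 log2 fold change was -0.53 for FZD3, against 0.22 as reported, and 0.14 for FZD2, against -0.15, and the difference of LRP6 was -0.18, against 0.30. In the DU145-labelled libraries 6 receptor genes passed, against 3 with quantile normalization and 2 without both DU145 GFP+ replicates 1 and 2, and 3 to 6 when each library was left out; of all genes 3435 passed, against 2161, 162 and 972 to 5621. In the PC3-labelled libraries 1 passed, against 0 with equal medians, without the variance trend and without both PC3 GFP- replicates 2 and 3, 2 with the GC and length trend removed (also with the replicate block) and 0 to 1 when each library was left out. Of all genes in PC3, 1095 passed, against 2312 with the GC and length trend removed, 2606 with the block as well, 354 without both PC3 GFP- replicates and 588 to 1424 when each library was left out. For the difference, 4 receptor genes passed, against 2 without both DU145 GFP+ replicates and 3 to 4 when each library was left out; of all genes 1959 passed, against 3350 with the replicate block, 3461 with GC and length as well, 614 without both DU145 GFP+ replicates, 1176 without both PC3 GFP- replicates and 1096 to 3665 when each library was left out. Between the labels 9 receptor genes passed, against 5 of the 6 kept by a minimum of 4 in 3 samples and 8 to 9 when each library was left out, and of all genes 8532 to 9001. The lower counts without both replicates have fewer samples; the cause of the other moves was not tested. CSNK1G2 reversed to a log2 fold change of 0.0219 in DU145 with the GC and length trend removed, with or without the block.

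Equal medians shifted the median log2 fold change over all genes by -0.11 for the difference and 0.12 between the labels. The split of calls into higher and lower was 457 and 378 with equal medians and 1297 and 1015 with GC and length removed, against 471 and 624, in PC3; 617 and 1331 with equal medians, against 860 and 1099, for the difference; and 881 and 1774 with GC and length removed, against 1657 and 1778, in DU145. Same-numbered libraries deviated together with r of -0.07, 0.12 and 0.29 in DU145 and 0.02, 0.28 and 0.24 in PC3. Between different numbers r ran from -0.33 to 0.28 in DU145 and from -0.26 to 0.08 in PC3. GFP+ replicates 2 and 3 correlated best with their own number under both labels. DU145 replicate 1 and PC3 replicate 1 of GFP+ correlated better with another number. These values do not settle whether the numbers pair the libraries, and the main fit did not pair them. With the replicate block 4883 genes passed in DU145, 1502 in PC3 and 7259 between the labels, and 6, 1, 4 and 8 receptor genes passed in the 4 comparisons; between the labels FZD4 lost its call with the replicate block (limma adjusted p = 0.0827), and FZD3 with the block and GC and length removed (0.0546). At 3 counts, RNF43, LGR5 and FZD10 were at the limit of detection.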
